A study of Mus musculus with 15 samples.

Results

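The genes described here are 10 textbook targets of the transcription factor p53 and inhibitors of cyclin-dependent kinases (CDKs): Cdkn1a, Cdkn2a, Cdkn2b, Ccng1, Mdm2, Gdf15, Eda2r, Phlda3, Bax and Trp53inp1. They were found by gene symbol, through the GENCODE M21 annotation of the mouse genome, among the 33340 genes of the deposited count table, and each of the 10 symbols matched 1 gene. Polyadenylated RNA of the whole lung was sequenced from male C57BL/6 mice aged 10 to 12 weeks at day 0, and at days 7, 14 and 21 after 5 U/kg bleomycin into the trachea. Day 0 held 4 libraries titled as controls, and there were 4 libraries at day 7, 4 at day 14 and 3 at day 21. These numbers come from the sample titles, and the series description gives fewer replicates for days 0, 7 and 14. The treatment label of day 0 replicate 4 named bleomycin, which its title did not, so the library was kept in day 0 and each comparison was also made without it. The labels name no other allele or agent in any group, the day 0 mice served as controls for each later day, and no group received vehicle alone by the labels.

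p53 is a transcription factor that is stabilised when DNA is broken, and bleomycin is a drug that cuts DNA. Its targets hold the cell cycle (Cdkn1a), feed back on p53 itself (Mdm2, Ccng1), send signals out of the cell or receive them (Gdf15, Eda2r), restrain AKT kinase signalling (Phlda3) or promote cell death and autophagy (Bax, Trp53inp1). The INK4 inhibitors p16INK4a and p15INK4b, products of the neighbouring genes Cdkn2a and Cdkn2b, block the kinases CDK4 and CDK6, and together with p21, the product of Cdkn1a, they are the genes most used to mark senescent cells in injured lung.

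Levels are given as CPM, that is, raw read counts divided by a library size that was scaled with the TMM method, and each value is 1 library. Total counts were 15652008 to 18020661 per library. A gene was counted as changed when the adjusted p of edgeR's quasi-likelihood test was under 0.05 and it differed more than 1.5-fold, and fold changes are on the log2 scale with a standard error (SE). All 10 genes passed the filter on low counts and entered the test, 9 of them through their day 0 libraries alone. Cdkn2a passed only through the later groups, with 1 of 4 day 0 libraries above the minimum of 0.586 CPM. The labels do not say that each library was a separate animal, so p-values measure the spread between these libraries. In whole lung, fewer cells of a type and less RNA per cell cannot be told apart, nor can more cells and more RNA per cell.

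Because p53 binds DNA, the promoters of the 10 genes were searched for its consensus. RefSeq promoter windows of 300 bases (build GRCm38.p6), from 250 before to 50 after a transcript start, matched 9 of the 10 genes, all but Trp53inp1, with 12 windows. Both strands were covered, since the consensus is its own reverse complement. The full p53 site, made of a pair of half-sites with no spacer and at most 1 mismatch outside the 4 core C and G bases, was found in 0.067% of all 32851 promoter windows, and the windows of Cdkn1a and Ccng1 each held 1. A single p53 half-site with no mismatch was found in 8.36% of all windows and in those of Cdkn1a, Ccng1, Mdm2 and Bax. Full sites overlap half-sites, so the searches are not independent. The forms of the motif were set after these windows had been searched, and the full sites of Cdkn1a and Ccng1 each hold 1 mismatch. The shares of all windows are therefore a description and no test. The following 4 stretches of 60 bases are shown because they hold these matches, and none of them touched an annotated exon. They lie before the transcript start, and capitals mark the full site in Cdkn1a and Ccng1 and the half-site in Mdm2 and Bax.
Cdkn1a, chr17:29090908-29090967, plus strand: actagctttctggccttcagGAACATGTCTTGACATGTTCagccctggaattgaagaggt
Ccng1, chr11:40755442-40755501, minus strand: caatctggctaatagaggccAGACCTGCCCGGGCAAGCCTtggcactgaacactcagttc
Mdm2, chr10:117710910-117710969, minus strand: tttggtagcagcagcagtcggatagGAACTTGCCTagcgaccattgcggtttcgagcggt
Bax, chr7:45467065-45467124, minus strand: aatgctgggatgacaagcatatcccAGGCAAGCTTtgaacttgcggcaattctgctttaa
Cdkn1a has 2 windows, and its match began 51 bases before the upstream transcript start, while the window of the downstream start, at 29093769 on chromosome 17, held none of the 3 motifs. The Ccng1 match began 195 bases before its start. The Mdm2 half-site began 186 bases before the start, and the Bax half-site 201 bases before it, inside the predicted gene Gm45808 of the same strand. The 6 letters ACATGT occurred 2 times in the Cdkn1a window, where they are part of the full site, and at least 1 time in 5.28% of all windows. Phlda3 also held them 1 time. The windows of Cdkn2a, Cdkn2b, Gdf15, Eda2r and Phlda3 held no match to the half-site, which says only that these letters are not in that window.

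Most of the 10 genes were higher after bleomycin. At day 7, 6 of the 10 rose against day 0, where 8.78% of the 17457 genes tested rose. At day 14, 7 of the 10 rose, against 12% of the genes tested, and at day 21 again 7 of the 10 rose, against 12.4%. None of the 10 fell at any of these days by edgeR, DESeq2 or limma voom, and at an unadjusted p under 0.05 only Trp53inp1 at day 14 was lower. Cdkn1a, Cdkn2b, Ccng1, Gdf15, Eda2r and Phlda3 rose at all 3 days, Cdkn2a, which passed the filter only through the later groups, rose at days 14 and 21, and Mdm2, Bax and Trp53inp1 passed both thresholds at no day by edgeR, while limma voom also called Bax at day 14. The median log2 fold change of the 10 genes was 1.40 at day 7, 1.49 at day 14 and 1.40 at day 21, and that of all genes tested was 0.00963, 0.0163 and 0.0243. Every later library lay above every day 0 library for 6 of the 10 genes at day 7, 8 at day 14 and 8 at day 21, where this held for 17.6%, 16.7% and 19.4% of the genes tested. These 3 comparisons share the day 0 libraries. The 10 genes were also chosen with earlier results of these data known, so their counts beside these shares are a description.

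**Figure D1:**
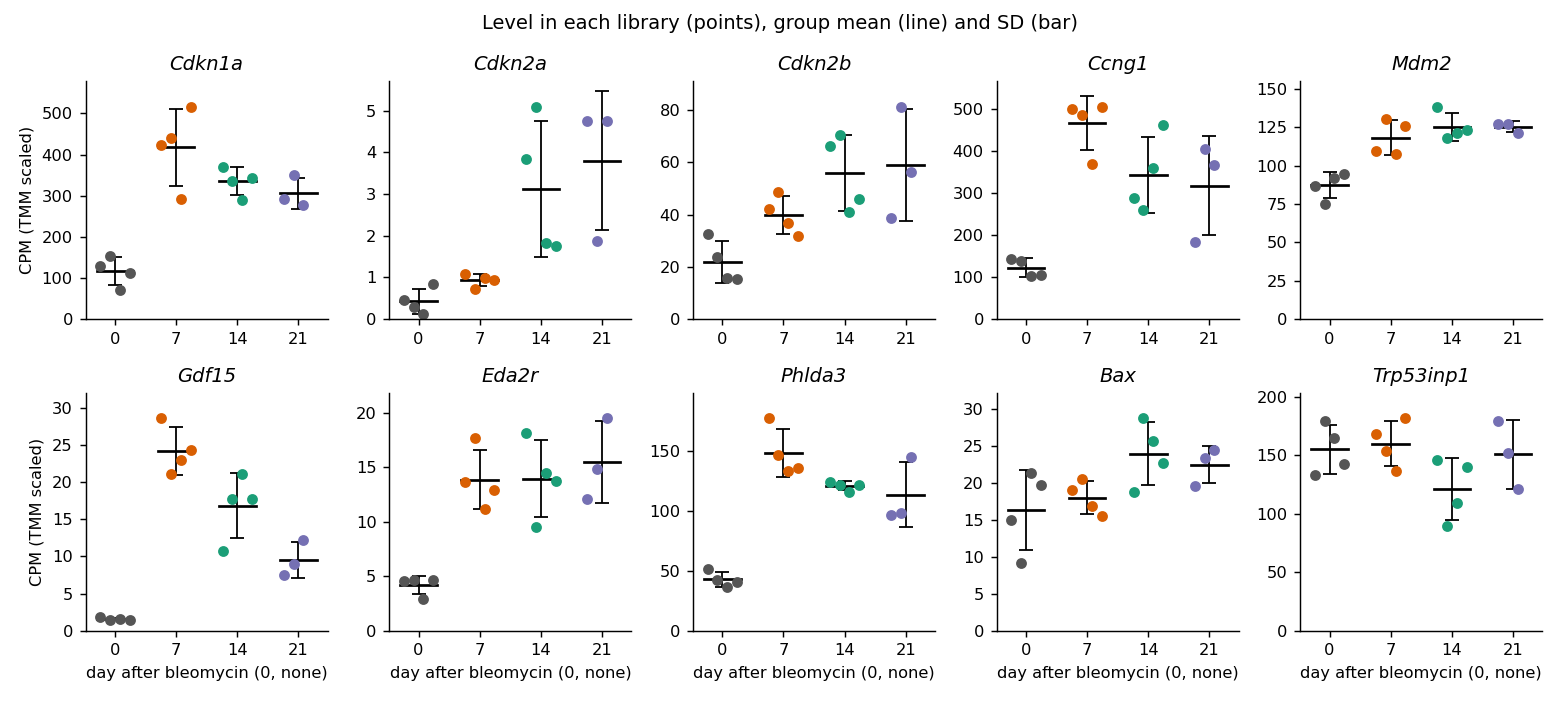
Each panel plots 1 gene, with CPM on a linear axis from 0 and day on the horizontal axis. Points are libraries, lines group means and bars SD (n = 4, 4, 4 and 3). The 4 day 0 libraries lie below all later libraries for Cdkn1a, Ccng1, Mdm2, Gdf15, Eda2r and Phlda3. Bax and Trp53inp1 overlap between days.

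**Figure D2:**
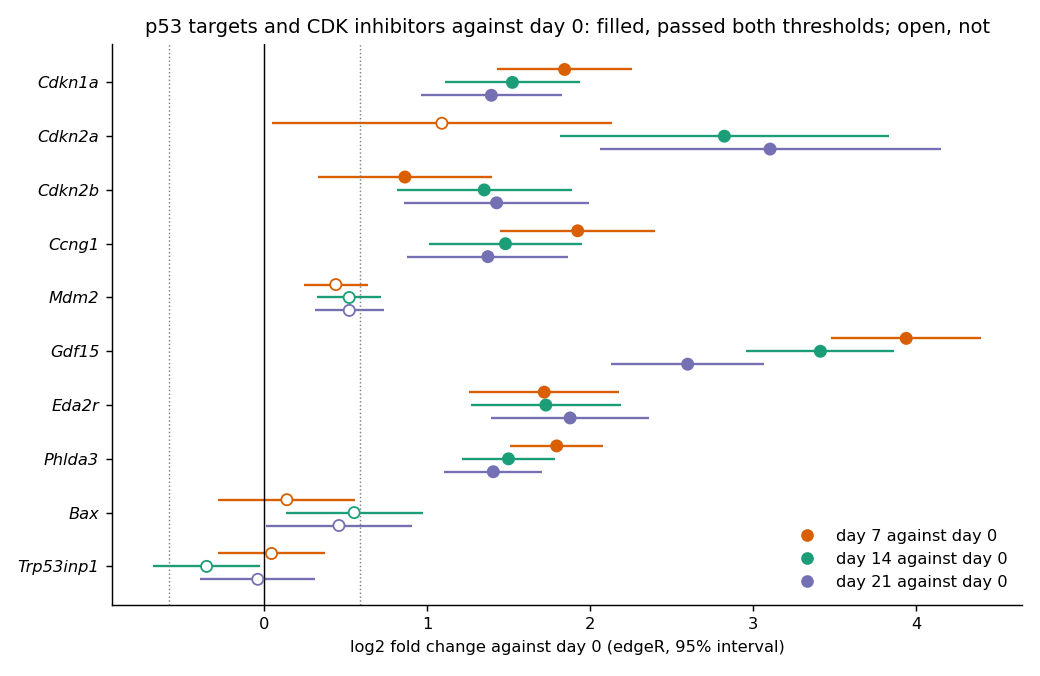
Log2 fold change of each gene against day 0, from edgeR, for days 7, 14 and 21. Bars span 2 SE to each side, which the axis names a 95% interval. Filled points passed both thresholds, and dotted lines mark the 1.5-fold threshold. Gdf15 had the largest value at day 7 (3.94) and Cdkn2a at day 21 (3.10), while the intervals of Mdm2 lay above 0 at each day.

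Cdkn1a encodes p21, which binds and blocks cyclin-CDK complexes. Its 4 day 0 libraries held 129, 153, 71.7 and 112 CPM. It stood at 422, 441, 291 and 517 CPM at day 7, at 370.3, 336, 289 and 343 CPM at day 14, and at 292, 349 and 276 CPM at day 21. No later library overlapped day 0, and the lowest later value, of day 21 replicate 3, was still above the highest day 0 value, of replicate 2. Cdkn1a rose by a log2 fold change of 1.84 (SE 0.21, edgeR adjusted p = 4.8e-05) at day 7, 1.52 (SE 0.21, adjusted p = 6.7e-05) at day 14 and 1.39 (SE 0.22, adjusted p = 0.00026) at day 21. The later days overlapped each other, and the difference of day 21 from day 7 was -0.45 (interval -0.89 to -0.01, edgeR adjusted p = 0.182). A predicted gene on the opposite strand shares 7.7% of the exon bases of Cdkn1a, and the strand setting of the counting was not stated.

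Cdkn2a was the scarcest of the 10 by raw counts. The gene gives rise to p16INK4a and, through another first exon, to p19ARF, an inhibitor of the MDM2 protein, and counts per gene cannot tell their transcripts apart. The day 0 libraries held 7, 5, 2 and 15 reads, or 0.453, 0.302, 0.127 and 0.836 CPM. Day 7 held 1.07, 0.725, 0.988 and 0.950 CPM. Replicate 4 of day 0 overlapped the lower part of day 7, and the difference of 1.09 (interval 0.05 to 2.13) did not pass (edgeR adjusted p = 0.137). Day 14 held 3.84, 5.10, 1.83 and 1.75 CPM, and day 21 held 4.75, 1.88 and 4.76 CPM. All 7 libraries of days 14 and 21 lay above all 8 of days 0 and 7, and within each of these days the libraries parted into higher and lower ones. Against day 0 the log2 fold change was 2.82 (SE 0.50, edgeR adjusted p = 0.00062) at day 14 and 3.10 (SE 0.52, adjusted p = 0.00047) at day 21. Against day 7 it was 1.73 (SE 0.46, edgeR adjusted p = 0.0354) at day 14 and 2.01 (SE 0.49, adjusted p = 0.0164) at day 21, where 2.77% and 5.2% of the genes tested rose. The day 14 call against day 7 was lost without any 1 of the 4 day 7 libraries (adjusted p 0.0715 to 0.0846), without day 14 replicate 1 (0.0547) and without day 14 replicate 2 (0.114), and also under limma voom (0.0634), glmTreat at 1.5-fold (0.226) and the fit with the mitochondrial share of counts (0.133). The day 21 call against day 7 was lost without day 21 replicate 1 (edgeR adjusted p = 0.0595), in the fit with that share (0.0539) and under glmTreat at 1.5-fold (0.1002). Among the libraries with over 2.5% of counts from mitochondrial genes, 2 at day 0 and 3 at day 14, the day 14 difference from day 0 was 2.52 (adjusted p = 0.0606).

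Cdkn2b, which encodes p15INK4b, lies next to Cdkn2a on chromosome 4 and had a much higher level. Its day 0 libraries held 32.7, 23.7, 15.9 and 15.5 CPM, and day 7 held 42.3, 48.6, 36.7 and 32.0 CPM. Day 7 replicate 4 overlapped day 0 replicate 1. Day 14 held 66.0, 70.6, 40.9 and 45.9 CPM and day 21 held 38.8, 81.3 and 56.4 CPM, all above day 0. Cdkn2b rose by 0.86 (SE 0.27, edgeR adjusted p = 0.0280) at day 7, 1.35 (SE 0.27, adjusted p = 0.0014) at day 14 and 1.43 (SE 0.28, adjusted p = 0.0016) at day 21. Day 0 replicates 1 and 2, the higher ones, had 2.28% and 2.31% of their counts from mitochondrial genes, and replicates 3 and 4 had 4.22% and 4.04%, while the day 7 libraries had 2.03% to 2.15%. Among the libraries under 2.5%, 2 at day 0 and 4 at day 7, the day 7 difference was 0.49 (adjusted p = 0.104), and with the share as a covariate it was 0.48 (adjusted p = 0.263). The day 7 call was also lost without day 0 replicate 3 or 4 or day 7 replicate 1 or 2 (edgeR adjusted p 0.0716 to 0.0979). It was lost under 7 of 19 alternatives in all.

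At day 14, replicates 1 and 2 lay above replicates 3 and 4 for both Cdkn2a and Cdkn2b. At day 21 the genes differed in this, since replicate 1 was the lowest library for Cdkn2b and among the highest for Cdkn2a. Between day 14 and day 21 neither gene differed beyond its spread, at 0.28 (interval -0.64 to 1.21) for Cdkn2a and 0.08 (-0.49 to 0.64) for Cdkn2b. No gene among all those tested was called between days 14 and 21 by edgeR (0%), where 1714 had an unadjusted p under 0.05 and DESeq2 called 101. None of the 10 was called there by either tool, and Gdf15 alone had an unadjusted p under 0.05 (0.00167).

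Ccng1, the gene of cyclin G1, an atypical cyclin that acts on MDM2 through a phosphatase, had the highest level of the 10 per length of exon. On the FPKM scale, CPM divided by the exon length in kilobases, it stood at 34.9 ± 6.26 (SD, n = 4) at day 0. Cdkn1a stood at 32.8 ± 9.67 and Phlda3 at 27.5 ± 3.95, and the day 0 libraries of these genes overlapped in range. In CPM its day 0 libraries held 144, 139, 102 and 105, and day 7 held 499.7, 486, 369 and 505. Day 14 held 289, 259, 359 and 461 CPM, and day 21 held 182, 404 and 365 CPM. All later libraries lay above day 0, with day 21 replicate 1 the nearest to it. The log2 fold change was 1.92 (SE 0.24, edgeR adjusted p = 8.5e-05) at day 7, 1.48 (SE 0.23, adjusted p = 0.00025) at day 14 and 1.37 (SE 0.25, adjusted p = 0.00078) at day 21.

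Mdm2, whose product ubiquitinates p53 and sends it to degradation, differed by less. Its day 0 libraries held 86.9, 75.2, 92.2 and 94.4 CPM. Day 7 held 109, 130.3, 108 and 126 CPM, day 14 held 138, 118, 121 and 123 CPM, and day 21 held 127, 127 and 121 CPM. Every later library lay above every day 0 library, and the libraries of day 21 lay within 1.05 times of each other. The log2 differences were 0.44 (SE 0.10, edgeR adjusted p = 0.0052), 0.52 (SE 0.10, adjusted p = 0.00093) and 0.52 (SE 0.11, adjusted p = 0.0017) at days 7, 14 and 21, past the adjusted p and under the 1.5-fold threshold at each day.

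Gdf15, a secreted stress cytokine of the TGF-beta superfamily, had the largest fold change of the 10 at days 7 and 14. At day 0 it held 1.81, 1.45, 1.59 and 1.45 CPM, from 24 to 28 reads a library. At day 7 the libraries held 28.6, 21.0, 22.9 and 24.3 CPM, at day 14 10.7, 17.7, 21.0 and 17.7 CPM, and at day 21 7.47, 8.99 and 12.2 CPM. No later library came near day 0, and all 3 day 21 libraries lay below all 4 day 7 libraries, with day 14 between and overlapping both. Against day 0 Gdf15 rose by 3.94 (SE 0.23, edgeR adjusted p = 2.2e-07), 3.41 (SE 0.23, adjusted p = 3.4e-07) and 2.60 (SE 0.24, adjusted p = 4.4e-06), which is 15.3-fold, 10.6-fold and 6.05-fold. From day 7 to day 21 it fell by 1.34 on the log2 scale (SE 0.22, edgeR adjusted p = 0.0027), where 4.34% of the genes tested fell. The steps from day 7 to day 14 (-0.53, adjusted p = 0.105) and from day 14 to day 21 (-0.81, adjusted p = 0.288) did not pass.

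Eda2r encodes a receptor of the tumour necrosis factor family for the EDA-A2 form of ectodysplasin, and was low at day 0, with 4.59, 4.65, 2.92 and 4.68 CPM. Day 7 held 13.7, 17.7, 11.2 and 12.9 CPM, day 14 held 18.1, 9.49, 14.5 and 13.7 CPM, and day 21 held 12.1, 14.9 and 19.5 CPM. The later days overlapped each other and none overlapped day 0. The log2 fold change was 1.72 (SE 0.23, edgeR adjusted p = 0.00015), 1.73 (SE 0.23, adjusted p = 5.7e-05) and 1.88 (SE 0.24, adjusted p = 5.6e-05) at the 3 days. Between day 7 and day 21 the difference was 0.16 with an interval from -0.31 to 0.63. Of 5 genes of signalling partners of GDF15 and EDA2R, 4 were tested, and 2 of them, Eda and Ret, fell at each day, where 7.36%, 11.2% and 10.1% of the genes tested fell. Eda, the ligand gene of Eda2r, held 5.63, 4.95, 5.2 and 7.13 CPM at day 0 and 1.14 to 3.81 CPM in all later libraries, and fell by 0.89, 1.64 and 1.01 on the log2 scale (edgeR adjusted p = 0.0400, 0.00091 and 0.0294). The fall of Eda at day 7 was lost without any 1 library other than day 0 replicate 2 (edgeR adjusted p 0.0538 to 0.113), and that at day 21 when day 0 replicate 4 or day 21 replicate 1 or 3 was left out (0.0724 to 0.105). Gfral, the receptor gene of GDF15, had 1 read in each of 2 libraries and none in the other 13, and its coreceptor gene Ret fell by 0.81, 0.78 and 1.15 (edgeR adjusted p = 0.0219, 0.0195 and 0.0042). The fall of Ret was lost at day 7 when day 0 replicate 3 or 4 or day 7 replicate 1, 2 or 3 was left out (edgeR adjusted p 0.0503 to 0.0636) and at day 14 without day 0 replicate 4 (0.0559).

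Phlda3, whose product competes with AKT for membrane lipid, held 51.4, 42.0, 36.8 and 41.1 CPM at day 0. Day 7 held 177, 147, 133 and 136 CPM, day 14 held 125, 122, 116 and 122 CPM, and day 21 held 97.1, 98.5 and 145 CPM. All later libraries lay above day 0, and all 4 of day 14 lay below all 4 of day 7. Its log2 fold change was 1.79 (SE 0.14, edgeR adjusted p = 3.0e-06), 1.498 (SE 0.14, adjusted p = 3.9e-06) and 1.41 (SE 0.15, adjusted p = 1.3e-05) at days 7, 14 and 21. The difference of day 14 from day 7 was -0.30 (interval -0.57 to -0.02, edgeR adjusted p = 0.196).

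Bax and Trp53inp1, the genes of a pore-forming promoter of apoptosis and of a stress protein of cell death and autophagy, passed both thresholds at no day by edgeR. Bax held 15.1, 9.24, 21.4 and 19.8 CPM at day 0 and 19.1, 20.6, 17.0 and 15.5 CPM at day 7, so that the day 7 libraries lay inside the day 0 range. It held 18.8, 28.8, 25.7 and 22.7 CPM at day 14 and 19.6, 23.4 and 24.4 CPM at day 21. Day 0 replicate 2 was the lowest of all 15 libraries for Bax, and 3 of 4 day 14 libraries and 2 of 3 day 21 libraries lay above day 0. The differences were 0.14 (interval -0.28 to 0.56), 0.55 (0.13 to 0.97, edgeR adjusted p = 0.0546) and 0.46 (0.01 to 0.91, adjusted p = 0.140). Leaving out day 0 replicate 3 brought Bax past both thresholds at day 14 (0.68, edgeR adjusted p = 0.0290), as did leaving out day 14 replicate 1 (0.63, adjusted p = 0.0442) and the use of limma voom (0.60, adjusted p = 0.0401). The day 14 difference was 0.33 without day 0 replicate 2 (edgeR adjusted p = 0.160) and 0.43 without day 14 replicate 2 (adjusted p = 0.178). The higher day 0 values of Bax were those of replicates 3 and 4, with 4.22% and 4.04% of counts from mitochondrial genes. Among the libraries under 2.5%, 2 at day 0 and 4 at day 7, the day 7 difference was 0.56 (edgeR adjusted p = 0.0967), and with the share in the fit it was 0.50 (adjusted p = 0.166). Among the libraries over 2.5%, 2 at day 0 and 3 at day 14, the day 14 difference was 0.31 (edgeR adjusted p = 0.238), and with the share in the fit it was 0.52 (adjusted p = 0.0325), under the fold threshold. A predicted gene on the same strand, Gm45808, shares 12.2% of the exon bases of Bax. Trp53inp1 held 133, 179.8, 165 and 143 CPM at day 0, 168, 153, 137 and 182 CPM at day 7, 146, 90.0, 109.6 and 140.4 CPM at day 14, and 179.6, 152 and 121 CPM at day 21. The days overlapped throughout, with differences of 0.04 (-0.28 to 0.37), -0.35 (-0.68 to -0.03, edgeR adjusted p = 0.109) and -0.04 (-0.39 to 0.31).

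Ordered by FPKM, which divides by exon length, Ccng1, Cdkn1a and Phlda3 were the 3 highest of the 10 at every day. Gdf15 stood at 0.850 ± 0.0921 (SD, n = 4) at day 0 and at 13.1 ± 1.73 (n = 4) at day 7, above Bax at 11.4 ± 1.42 (n = 4) by less than the sum of their spreads. Cdkn2b was 6th highest at day 0, at 15.8 ± 5.83 (n = 4), and 4th highest at days 7, 14 and 21, with 42.3 ± 15.4 (n = 3) at day 21. Eda2r and Cdkn2a were the lowest at every day. At day 14 they stood at 2.37 ± 0.601 and 2.67 ± 1.39 (n = 4) and did not differ beyond their spread.

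Most other textbook p53 targets were not called. Of 29 further target genes, 7 rose and none fell at day 7 by edgeR, where 4 were lower at an unadjusted p under 0.05 and DESeq2 called 2 genes lower, and 7 rose and 3 fell at both day 14 and day 21, where 8.78%, 12% and 12.4% of the genes tested rose and 7.36%, 11.2% and 10.1% fell. Their median log2 fold changes were 0.08, 0.14 and 0.28. Aen, Ak1, Pidd1, Psrc1, Tnfrsf10b and Zmat3 rose at all 3 days, Sesn2 rose at day 7, and Plk3 rose at days 14 and 21. When day 0 replicate 1 or 2 or day 14 replicate 2 was left out, Plk3 lost its call at day 14 (edgeR adjusted p 0.0646 to 0.0790), and it lost that at day 21 with either of the same day 0 libraries or day 21 replicate 1 or 2 left out (0.0828 to 0.137). Psrc1, a spindle protein gene, held 1.94, 2.66, 2.54 and 2.45 CPM at day 0 and 15.6 to 28.3 CPM in the 11 later libraries. None of these overlapped day 0, and its log2 fold change was 2.96, 3.34 and 2.97 (SE 0.18 at each day, edgeR adjusted p = 2.2e-07, 8.4e-08 and 6.7e-07). Tnfrsf10b, a death receptor gene, rose by 1.33, 1.56 and 1.27 (edgeR adjusted p = 0.00084, 0.00011 and 0.00098), and Pidd1, the gene of a caspase-2 platform protein, by 0.93, 1.39 and 1.16 (adjusted p = 0.0061, 0.00019 and 0.0014). The Sesn2 difference was under 1.5-fold without day 0 replicate 1 or day 7 replicate 4. Aen, an apoptosis-linked nuclease gene, rose by 1.18, 1.07 and 0.91, and Zmat3, an RNA-binding protein gene, by 0.81, 0.86 and 0.92.

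Other well-known targets did not pass at any day. Bbc3 and Pmaip1, the genes of the BH3-only proteins PUMA and NOXA, had log2 differences of 0.18, 0.22 and 0.06 and of -0.30, -0.21 and 0.37. Gadd45a, a DNA damage response gene, had 0.08, 0.23 and -0.06, and the death receptor gene Fas had -0.25, -0.18 and 0.55. Those that fell were Dcxr and Xpc, a sugar reductase and a DNA repair gene, at days 14 and 21, Rrm2b, a ribonucleotide reductase subunit, at day 14, and Btg2, an antiproliferative gene, at day 21 (-1.11, edgeR adjusted p = 0.0436). The day 14 fall of Xpc was under 1.5-fold when day 0 replicate 1 or day 14 replicate 2 was left out. Btg2 held 182 to 896 CPM at day 0, with a median of 275 CPM, and 181 to 193 CPM at day 21. Without day 0 replicate 4, whose treatment label named bleomycin, its difference was -0.41 (edgeR adjusted p = 0.138), and its call was also lost without any 1 of the 3 day 21 libraries (0.0861 to 0.1001), and under 8 of 17 alternatives in all. Between later days, Dcxr fell from day 7 to day 14 by 0.71 (edgeR adjusted p = 0.0155), where 3.23% of the genes tested fell. It fell by 1.04 from day 7 to day 21 (adjusted p = 0.0025), and Sesn2 fell and Fas and Pmaip1 rose from day 7 to day 21 (-0.87, 0.80 and 0.67, adjusted p = 0.0111, 0.0111 and 0.0184), where 5.2% of the genes tested rose and 4.34% fell.

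**Figure D3:**
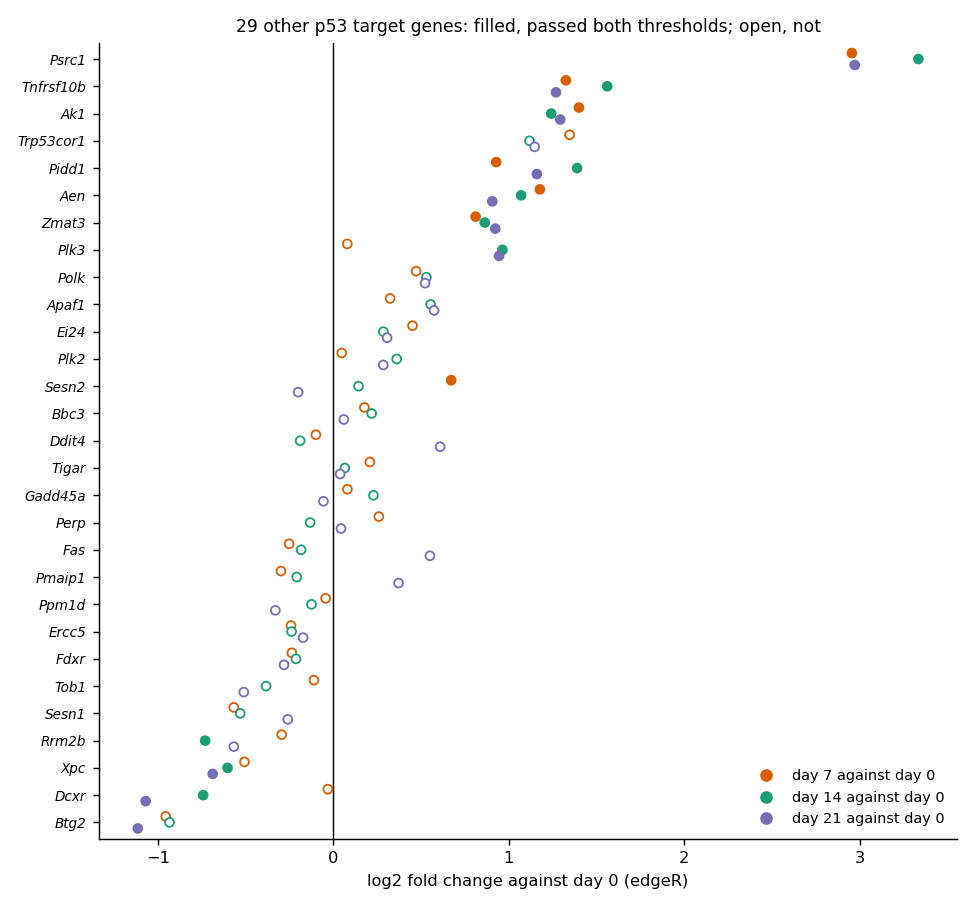
Log2 fold change against day 0 of the 29 other p53 target genes, ordered by their mean over days 7, 14 and 21, with filled points where both thresholds were passed. Psrc1 stands apart at the top, with values of 2.96 to 3.34, and 17 of the 29 genes have no filled point.

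The gene of p53 itself, Trp53, held 51.3, 47.5, 53.3 and 48.7 CPM at day 0 and 54.9 to 72.5 CPM in all later libraries. The days did not overlap with day 0, and the differences of 0.38, 0.45 and 0.32 (edgeR adjusted p = 0.0103, 0.0022 and 0.0310) were under the 1.5-fold threshold, as those of Mdm2 were. Mdm4, a partner of MDM2 in the inhibition of p53, held 117, 124, 167 and 178 CPM at day 0 and 82.4 to 92.2 CPM at day 7. It fell by 0.74 at day 7 (SE 0.17, edgeR adjusted p = 0.0072), with no overlap, and had differences of -0.09 and -0.01 at days 14 and 21, when the libraries overlapped day 0. It was higher at days 14 and 21 than at day 7 by 0.64 and 0.72 (edgeR adjusted p = 0.0371 and 0.0211). The higher day 0 values of Mdm4 were those of replicates 3 and 4, with 4.22% and 4.04% of counts from mitochondrial genes, and with that share as a covariate the day 7 difference was -0.35 (edgeR adjusted p = 0.0990). Of all 11 genes of p53 control, 2 rose and 1 fell at day 7, 2 rose and 1 fell at day 14, and 1 rose and 1 fell at day 21, where 8.78%, 12% and 12.4% of the genes tested rose and 7.36%, 11.2% and 10.1% fell. Chek1, a checkpoint kinase gene, rose at days 7 and 14 (1.18 and 1.17), and Chek2 at day 14 (0.61). The p53 family gene Trp63, which passed the filter on low counts only through the later groups, had calls at days 7 and 21 (1.43 and 2.01), and Trp73 fell at days 14 and 21 (-1.71 and -1.57). Trp63 held 1.41 to 4.63 CPM at day 21, with a median of 1.54 CPM, and 0.317 to 1.09 CPM at day 0. Its day 21 difference was 1.21 without day 21 replicate 1, and the call was lost (edgeR adjusted p = 0.0665). The day 7 call of Trp63 was lost without any 1 of 6 libraries (0.0564 to 0.0940), and the call of Chek2 without any 1 of 6 libraries (0.0563 to 0.0975). Chek2 lost its call under 11 of 19 alternatives in all. Atm, Atr, Trp53bp1, Usp7 and Hipk2 passed at no day.

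None of the 4 other CDK inhibitors rose at more than 1 day. Cdkn1b, the gene of p27, held 169, 171, 166 and 133 CPM at day 0 and 78.0 to 120.1 CPM in all later libraries, with no overlap, and fell by 0.79, 0.70 and 0.82 (edgeR adjusted p = 0.00066, 0.00077 and 0.00053). Among the libraries with over 2.5% of counts from mitochondrial genes, the day 14 difference of Cdkn1b was -0.52 (edgeR adjusted p = 0.0551). Cdkn1c, the gene of p57, fell at day 14 (-0.91, edgeR adjusted p = 0.0020), Cdkn2c rose at day 14 (0.61, adjusted p = 0.0320) and Cdkn2d passed at no day. The call of Cdkn2c was lost without any 1 of 5 of the 8 libraries (edgeR adjusted p 0.0603 to 0.0998), and under 10 of 19 alternatives in all. Of the 12 genes of CDKs, cyclins and RB proteins on which the inhibitors act, Ccnd1, Ccne1 and Ccne2, genes of G1 cyclins, rose at all 3 days, where 8.78%, 12% and 12.4% of the genes tested rose, and Rbl2 fell at day 14. Ccne1 had the largest values, of 1.87, 2.32 and 1.83. Ccne1 kept its calls whichever library was left out. Ccne2 lost its call without any 1 of 7 libraries at day 7 (edgeR adjusted p 0.0594 to 0.132) and any 1 of 4 at day 21 (0.0553 to 0.171), and under 13 of 19 and 7 of 17 alternatives in all at these days. Ccnd1 lost its call at day 14 without day 0 replicate 3, by its fold, or replicate 4 (adjusted p = 0.0525), and at day 21 without any 1 of 4 libraries (0.0603 to 0.119), and Rbl2 fell short of the fold threshold without day 14 replicate 2. Cdk4 and Cdk6, the kinases that INK4 proteins bind, had differences of 0.40, 0.48 and 0.28 and of -0.01, 0.27 and 0.34. The 5 genes of dividing cells, Mki67, Top2a, Ccna2, Ccnb1 and Cdk1, all rose at each day, against those same shares of the genes tested, with median log2 fold changes of 2.49, 2.83 and 1.81.

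**Figure D4:**
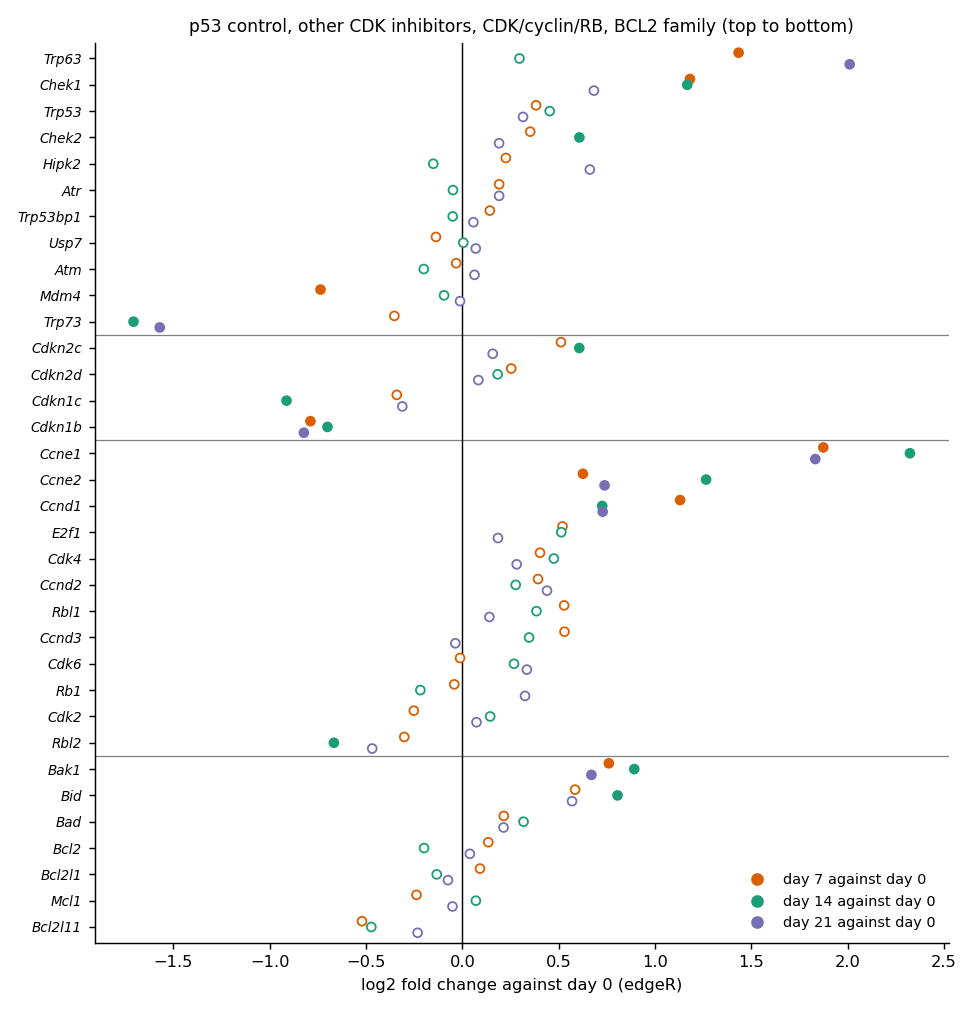
Log2 fold change against day 0 of the genes of p53 control, other CDK inhibitors, CDKs, cyclins and RB proteins, and the BCL2 family, from top to bottom and parted by lines, with filled points where both thresholds were passed. Ccne1 lies farthest to the right, up to 2.32, and Cdkn1b has 3 filled points left of 0.

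Among the 7 genes of the BCL2 family, Bak1, the gene of the other pore-forming protein beside BAX, held 15.5, 12.7, 15.2 and 16.4 CPM at day 0 and 20.8 to 32.3 CPM later. It rose by 0.76, 0.89 and 0.67 (edgeR adjusted p = 0.0018, 0.00027 and 0.0041), with no overlap with day 0. At day 21 its fold change was under 1.5 without day 0 replicate 2 or day 21 replicate 3. Bid rose at day 14 and lost its call without day 14 replicate 1 (edgeR adjusted p = 0.0569), and Bcl2, Bcl2l1, Mcl1, Bad and Bcl2l11 passed at no day. Of 11 genes of secreted proteins, lamin B1 and lysosomal galactosidase that are used beside p16 and p21 to describe senescence, 4 rose and 1 fell at day 7, 6 rose and 1 fell at day 14, and 5 rose and none fell at day 21, where 8.78%, 12% and 12.4% of the genes tested rose and 7.36%, 11.2% and 10.1% fell. Igfbp3, a gene of an insulin-like growth factor binding protein, fell by 2.33 at day 7 and 1.48 at day 14. The calls of Il6 and Mmp3 at day 21 were lost under 5 and 6 of 17 alternatives, and those of Cxcl1 at day 7 and Igfbp3 at day 14 each under 6 of 19. Ccl2 and Il6 passed the filter on low counts only through the later groups, where they were high. Ccl2, a monocyte chemokine gene, rose by 4.66, 4.33 and 4.90, the last of which was 4.28 without day 21 replicate 1. Lmnb1, the lamin B1 gene, which is known to be lost from senescent cells, rose by 0.95 and 0.83 at days 7 and 14 and had a difference of -0.01 at day 21. The day 7 difference of Lmnb1 was 0.69 (edgeR adjusted p = 0.0708) in the fit that included the share of mitochondrial counts.

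Markers of lung cell types also differed between days, and their counts stand beside 8.78%, 12% and 12.4% of the genes tested that rose at days 7, 14 and 21 and 7.36%, 11.2% and 10.1% that fell. The 5 markers of Krt8-positive transitional alveolar cells summed to 382 to 509 CPM at day 0, 957 to 1395 CPM at day 7, 624 to 1154 CPM at day 14 and 692 to 915 CPM at day 21, and 5, 4 and 3 of them rose. The 5 fibroblast markers summed to 1190.3 to 1631 CPM at day 0 and to 3351 to 4234, 2645 to 10545 and 3655 to 7481 CPM at the later days, and 2, 3 and 3 of them rose. Of 5 macrophage markers, 2, 4 and 3 rose, while their sums overlapped day 0 at days 7, 14 and 21. The 5 alveolar type 2 markers summed to 23286 to 32925 CPM at day 0 and to 13360 to 22471, 5201 to 17480 and 3246 to 7435 CPM at the later days, with no overlap with day 0, and 0, 3 and 5 of them fell. The 5 airway markers, which include Trp63, summed to 25166 to 32020 CPM at day 0 and to 8714 to 11234, 2806 to 7011 and 1436 to 5435 CPM at the later days, with no overlap. Of the 4 airway markers tested, 1, 3 and 1 fell and 1, 0 and 1 rose, and their median log2 fold change was 0.22, -1.26 and -0.88. Endothelial markers summed to 2483 to 2983 CPM at day 0 and 1342 to 2338 CPM later, and 1, 3 and 1 of 5 fell. Neutrophil markers fell in 3, 1 and 3 of 4 genes and those of T and B cells in 0, 3 and 3 of 5. Adipocyte markers fell in 1, 4 and 3 of 4 genes, with sums of 19.1 to 51.4 CPM at day 0 and 7.64 to 91.3, 1.003 to 3.44 and 0.740 to 2.53 CPM at the later days. Alveolar type 1 markers fell in 1, 0 and 2 of 4 genes, and cardiac muscle markers in 0, 1 and 0 of the 4 tested. In these 11 lists, 1 airway marker was at 0 in every day 0 library and no other marker was at 0 throughout a group. The part of these cells in the differences of the 10 genes was not tested.

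Across all 15 libraries, the genes whose log2 CPM most resembled that of a changed gene, after centring, were found by the root mean square difference among 11808 genes. Ppa1 and Emilin1 were among the 3 nearest to Cdkn1a (0.25 and 0.29), Tmem173, Car13 and Emilin1 to Phlda3 (0.17 to 0.22), Gja1 and Ctps to Ccng1 (0.30 and 0.31), and Loxl1, Snai1 and Emilin1 to Eda2r (0.25 to 0.26). For Cdkn2b these were Map6, Ctsh and Naip2 (0.24 to 0.29), and for Cdkn2a Ctsk, Pgf and Ms4a6d (0.51 to 0.56). Ddias, Psrc1 and Ckap2 were nearest to Gdf15 (0.46 to 0.54). These values are a description, since all libraries share the course over days.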

How the data were processed

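RNA-seq libraries were made from polyadenylated RNA of whole mouse lungs. Per the study's methods and the labels, the authors trimmed reads with TrimGalore, aligned them to GRCm38 (mm10) with HISAT2 2.1.0 and deposited raw counts per Ensembl gene from HTSeq 0.6.0, with no normalization; the processing notes also name DESeq2 1.40.2. The annotation release and strand setting were not given in the sources used here, so counts of overlapping genes carry that uncertainty. Groups came from sample titles. GENCODE M21 gave symbols for 33267 of 33340 genes, and the other genes held 0.00889% of the counts. Total counts were 15652008 to 18020661 per library, and reads that are PCR copies are not independent molecules.

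Counts were analysed with edgeR 4.0.16 in R 4.3.3: filterByExpr by day group (17457 genes kept), TMM, estimateDisp, glmQLFit and glmQLFTest on all 15 libraries, with Benjamini-Hochberg adjustment over all genes tested. Biological variation between libraries came to a common coefficient of 22.8%. A change needed an adjusted p under 0.05 and a difference of more than 1.5-fold. FPKM values were computed here from CPM and merged exon length, and likeness used log2 CPM (prior count 2) of genes with a mean of at least 5 CPM. The test was tried on simulated counts for day 7 against day 0, where 60.2% of genes changed 2-fold and 87.9% of those changed 4-fold were called, with 6 unchanged genes called. The alternatives were DESeq2 1.42.0, RLE factors, scaling by total count, keeping genes by a mean of 1 CPM or more, keeping all genes, the 2 groups alone, replicate number as a block, limma 3.58.1 with voom, no fold threshold, glmTreat at 1.5-fold, leaving out each library, and the mitochondrial share of counts as a covariate or parted at 2.5%.

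The 10 genes, the other gene lists and the tests were chosen with earlier results of these data known, and the forms of the p53 motif after the promoter windows had been searched. The genes named were the 10, the other genes of the pathway lists, and the 3 genes most like each changed gene, except for a few results that are not reported here.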

Additional observations from a re-analysis of the deposited data

Results flagged for a closer look

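In 2 of 30 groups of 4 libraries examined, 1 library lay far from the others of its day, and chance alone gives such a gap in about 5% of groups. Ccng1 in day 7 replicate 3 stood at 369 CPM, while the other day 7 libraries stood at 486 to 505 CPM. Eda2r in day 0 replicate 3 stood at 2.92 CPM, while the other day 0 libraries stood at 4.59 to 4.68 CPM. Both genes rose against day 0 at every day with and without these libraries.

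The change against day 0 differed between days for 2 of the 10 genes by the direct edgeR test of the later days, where 2.77% and 3.23% of the genes tested rose and fell from day 7 to day 14 and 5.2% and 4.34% from day 7 to day 21. Cdkn2a was higher at day 14 than at day 7 by a log2 fold change of 1.73, and higher at day 21 than at day 7 by 2.01. These calls of Cdkn2a were lost under 9 of 18 and 3 of 17 alternatives. Gdf15 went the other way, with a log2 fold change of -1.34 between day 21 and day 7.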

How the results depend on the processing

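The calls of the 10 genes against day 0 held under most alternatives. Of 33 results for single genes of the 10, 25 kept their direction and their side of the thresholds under all alternatives run for single genes, and of 602 refits 572 did, 20 lost a call, 3 gained one and 7 reversed in sign. The reversals were of Bax or Trp53inp1, at values near 0. On leaving out a library, Bax at day 7 ranged from -0.083 to 0.27, below 0 without day 0 replicate 2, while other alternatives reached 0.56, within the libraries under 2.5% mitochondrial counts. Trp53inp1 at day 7 ranged from -0.050 to 0.11, below 0 without day 0 replicate 1 or 4 or day 7 replicate 1 or 4, and at day 21 from -0.22 to 0.055, above 0 without day 0 replicate 2 or day 21 replicate 3. The fold threshold was dropped for counts only: without it 7, 8 and 8 of the 10 genes were called against day 0, where 25%, 33.1% and 29.8% of the genes tested were. Of 92 results for single pathway genes, 46 kept theirs, and of 1690 refits 173 lost a call and 0 reversed.

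Between day 7 and day 14, 1 of the 10 genes was called, and 0 were called with limma voom, glmTreat or the mitochondrial share as a covariate, and 0 to 1 on leaving out a library. Between day 7 and day 21, 2 were called, with 1 under glmTreat and 1 to 3 on leaving out a library. Between day 14 and day 21, 0 were called, and 0 to 1 on leaving out a library, with 1 that fell without day 14 replicate 1. Of the 29 other p53 targets, 7 were called at day 7 against day 0 (4 under glmTreat, 12 without the fold threshold), 10 at day 14 (5 under glmTreat) and 10 at day 21 (16 without the fold threshold). Of all genes tested, glmTreat called 4.03% at day 7 and 10.1% at day 14. Without the fold threshold 25% were called at day 7 and 29.8% at day 21. The fit with the mitochondrial share called 7.27% at day 7, or 1269 genes, where the main fit called 2818. Between day 7 and days 14 and 21 glmTreat called 0.0802% and 1.01%, and the fit with the mitochondrial share 1.25% and 5.4%. Between day 7 and day 14, 1 of the 29 other p53 targets was called. The count was 2 under DESeq2, with no filter and with the 2 groups alone, and 0 under glmTreat. On leaving out a library it was 1 to 3, the 3 without day 14 replicate 4. Between day 7 and day 21 it was 4, with 0 under glmTreat, 2 with the mitochondrial share, and 2 to 4 on leaving out a library, the 2 without day 21 replicate 1. Between day 14 and day 21 it was 0, with 1 under DESeq2 and 0 to 1 on leaving out a library, the 1 without day 21 replicate 3. glmTreat tests against a larger difference, and leaving out a library or fold threshold changes the samples or the criterion. For the other alternatives the cause was not tested.

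The labels tie replicate numbers to nothing shared. Between libraries of the same number, correlations of deviations from the group means were -0.244 to 0.397 over 21 pairs, with 8 over 0.1. Pairs of differing number were not compared, so these values cannot tell whether the numbers pair the libraries. With the replicate number as a block, 6, 7 and 7 of the 10 genes were called against day 0 and 1, 2 and 0 between later days, as without it, and of the 29 other p53 targets 7, 10 and 8 were called against day 0, where 16.7%, 23.6% and 21.5% of the genes tested were. Cdkn2a had 2 to 15 reads in the day 0 libraries, the fewest of the 10 genes.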
